A study of Mus musculus with 9 samples.

Results

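A set of 10 genes for matrix proteins other than collagens, of 47729 genes counted, was followed as C2C12 cells, a mouse myoblast line, formed myotubes. They were chosen by symbol: the glycoproteins Fn1, Sparc, Postn, Tnc, Thbs1 and Fbn1, the small leucine-rich proteoglycans Dcn, Bgn and Lum, and the cross-linking enzyme Lox. Transcripts were measured by sequencing poly(A)-selected RNA from 3 cell populations. WT cells had received a guide RNA without a target, and the Per1KO and Per2KO cells had the circadian clock gene Per1 or Per2 knocked out with CRISPR-Cas9. Each population was sampled in growth medium on day 0, and on days 3 and 5 after growth serum was replaced by horse serum. There were 9 libraries, 1 of each population at each time. The labels do not say whether a population was 1 clone or a pool of edited cells, and they name whole muscle as tissue beside the cell line. The muscle marker list fixed for this work (Myod1, Myf5, Myog, Des, Myh3, Ckm, Actc1 and Mymk) had counts for all 8 genes in every library.

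The matrix around a muscle fibre anchors cells, stores growth factors and passes on force. Fibronectin forms fibrils that cells grip through integrins, fibrillin-1 builds microfibrils that hold latent TGF-beta, and matricellular proteins such as SPARC, periostin, tenascin-C and thrombospondin-1 tune adhesion more than they bear load. Decorin, biglycan and lumican bind collagen fibrils and shape them, and decorin is known to bind myostatin and TGF-beta. Lysyl oxidase makes the covalent cross-links of collagen and elastin.

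The WT libraries held 5020385 to 6773320 counts and the knockout libraries 41997763 to 48051824, and only the WT titles carry a lane suffix. The titles name no batch. In each contrast to WT, genotype cannot be told apart from a difference in how the WT and knockout libraries were sequenced. Levels are given as CPM, counts of a gene as a rate over the counts of its library, after TMM scaling, which uses a trimmed mean of log ratios between libraries. Per1 RNA was at 30.9 to 35.5 CPM in WT, 20.8 to 32.4 in Per1KO and 16.4 to 32.9 in Per2KO, and Per2 RNA at 9.73 to 20.4, 6.58 to 10.6 and 3.50 to 9.12 CPM; the only called difference was Per2 in Per2KO (log2 fold change -1.02, adjusted p = 0.0230, edgeR). The genotype names are those of the labels. With 1 library per genotype and day, an additive model of all 9 libraries used the 3 days as stand-ins for repeats of a genotype, and the 3 genotypes likewise for a day. The 13324 genes that reached 1 CPM in 3 or more libraries were tested, which kept 9 of the 10 genes and left out Lum. Genes were called at an edgeR quasi-likelihood p-value under 0.05 after Benjamini-Hochberg adjustment over all 13324 genes. P-values measure the spread between these libraries, not between independently edited populations.

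Windows of 250 bases upstream of a start site were available in the RefSeq table (build GRCm38.p6) for 5 of the 10 genes: Sparc, Postn, Tnc, Bgn and Fbn1. Those of Postn, Tnc and Bgn are printed as examples of different courses below: Postn had the largest fitted rise on day 5, Tnc fell, and Bgn rose and was lower in the knockouts, as Postn was too. They are the Postn window chr3:54360857-54361106 (plus strand), the Tnc window chr4:64047016-64047265 (minus strand) and the Bgn window chrX:73483351-73483600 (plus strand). Each is written 5′ to 3′ in the direction of the gene and ends just before the start site nearest to the annotated gene start, and capitals mark the letters TATAAA, the core of a TATA box.
Postn: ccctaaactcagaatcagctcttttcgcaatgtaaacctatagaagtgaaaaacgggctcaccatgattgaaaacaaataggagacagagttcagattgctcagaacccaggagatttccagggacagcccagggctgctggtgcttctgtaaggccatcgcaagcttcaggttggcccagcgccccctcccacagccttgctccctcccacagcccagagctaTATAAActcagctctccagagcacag
Tnc: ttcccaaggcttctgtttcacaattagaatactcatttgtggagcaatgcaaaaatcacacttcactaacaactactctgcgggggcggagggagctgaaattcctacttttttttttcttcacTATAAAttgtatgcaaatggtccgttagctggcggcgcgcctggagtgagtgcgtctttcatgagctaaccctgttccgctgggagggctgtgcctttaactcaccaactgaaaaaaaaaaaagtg
Bgn: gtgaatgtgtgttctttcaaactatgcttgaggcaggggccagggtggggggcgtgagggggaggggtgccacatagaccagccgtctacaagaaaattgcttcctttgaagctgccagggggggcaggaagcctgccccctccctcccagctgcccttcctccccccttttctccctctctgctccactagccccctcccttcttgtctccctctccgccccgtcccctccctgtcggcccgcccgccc
TATAAA, searched on both strands, began 26 bases before the start in the Postn window and 126 bases before it in the Tnc window, and it was not in the Bgn, Sparc or Fbn1 windows. It occurred in 12.4% of the 32851 upstream windows of the table. GC content was 52.0% in the Postn window, 44.8% in that of Tnc and 64.4% in that of Bgn. The other motifs searched on both strands were CANNTG (E-box), GGAATG (TEAD) and TGANTCA (AP-1), found in 66.2%, 12.6% and 6.7% of all windows. CANNTG occurred 3 times in the Tnc window, 1 time in that of Bgn, 2 times in that of Sparc, and not in those of Postn and Fbn1. The other 2 motifs were in none of these 5 windows. Postn and Tnc each had 2 windows in the table. The other Postn window (chr3:54359017-54359266) had no TATAAA or CANNTG and 40.4% GC. The other Tnc window (chr4:64046937-64047186) had TATAAA 205 bases before its start, CANNTG 2 times and 51.2% GC. The 2 Tnc windows overlap, and this is the same TATAAA as the one marked above. A match of letters is a description of the sequence and not a binding site.

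Together the 10 genes held 1.29% of all counts in WT on day 0, 1.99% on day 3 and 3.56% on day 5. In Per1KO the shares were 1.10%, 1.69% and 1.32%, and in Per2KO 1.11%, 1.55% and 1.52%. The day 5 WT library stood apart from the 8 others, and Fn1 was the gene with the highest level in it.

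**Figure D1:**
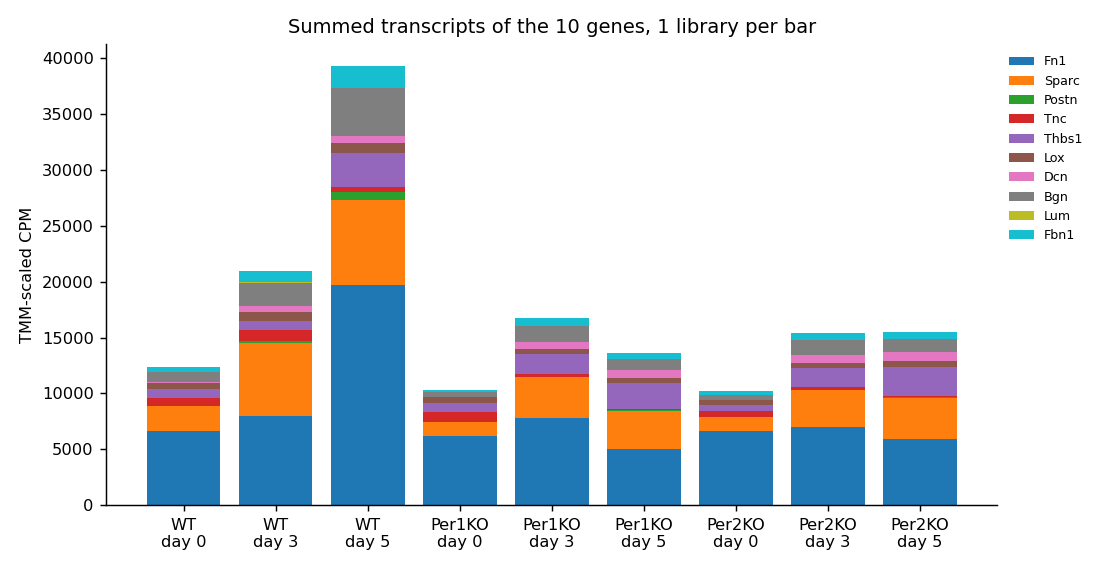
Stacked bars give the TMM-scaled CPM of the 10 genes in each of the 9 libraries, with colours for genes. The bar of WT on day 5 reaches 39260 CPM, and the other 8 bars lie between 10250 and 20920 CPM.

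Levels can be compared between genes only per length, and CPM was divided by the length of the longest annotated transcript for this purpose. Sparc had the highest mean over the 9 libraries, 1583 CPM per kilobase (range 522 to 3290), followed by Fn1 at 975.5 (612 to 2370) and Bgn at 548.8 (164 to 1620). Thbs1 was at 274.4 CPM per kilobase (88.6 to 519), Lox at 116.5 (88.8 to 196), Dcn at 98.05 (1.40 to 173), Tnc at 68.06 (15.7 to 142), Fbn1 at 59.95 (17.1 to 164) and Postn at 21.68 (0.207 to 133). Lum was last, at 0.890 CPM per kilobase (0 to 5.02). The ranges of neighbours in this order overlapped in every case. Lox varied least, 2.20-fold between its lowest and highest library, and among the tested genes Postn varied most, 641-fold.

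**Figure D2:**
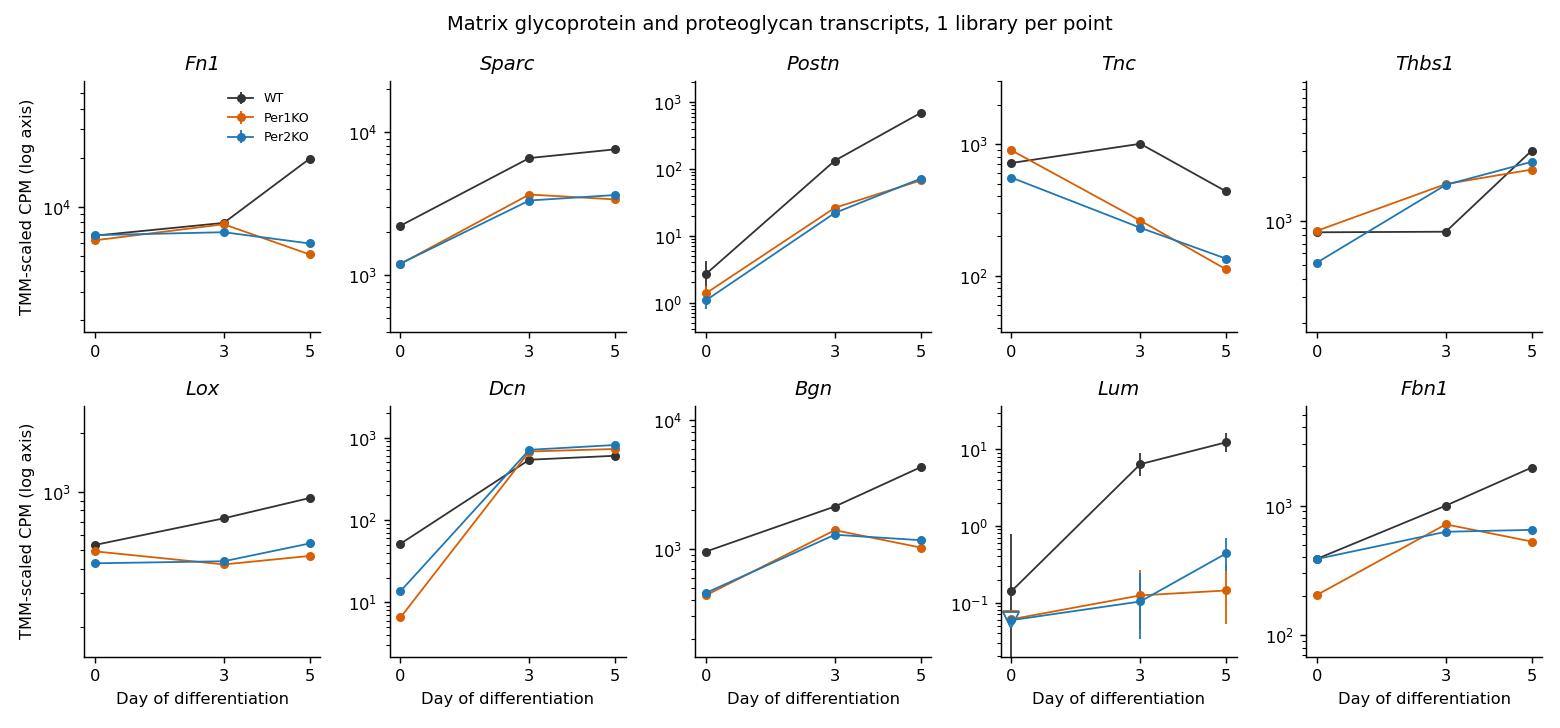
Each panel gives the TMM-scaled CPM of 1 gene on a log axis against the day of differentiation, with 1 library per point, lines for genotypes and bars for exact 95% counting intervals, which are mostly smaller than the points. Open triangles for Lum mark libraries with 0 counts, drawn at the level of 3 counts. By value WT lies above both knockouts on all 3 days for Sparc, Postn, Lox, Bgn, Fbn1 and Lum. On day 0 the WT interval reaches the level or interval of a knockout for Postn, Fbn1 and Lum.

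To ask how the matrix genes changed during differentiation, days 3 and 5 were compared with day 0 across genotypes. On day 5, 6 of the 9 tested genes rose (Sparc, Postn, Thbs1, Dcn, Bgn and Fbn1), where 23.2% of all tested genes were called higher, and Tnc fell, where 22.9% were called lower. Fn1 and Lox did not pass the test. On day 3, 5 of 9 genes rose (Sparc, Postn, Dcn, Bgn and Fbn1; 18.1% of all genes were called higher) and none fell (16.9%), nor did any at a p-value under 0.05 before adjustment; the DESeq2 Wald test added a rise of Thbs1 and a fall of Tnc. The median log2 fold change of the 9 genes was 1.28 on day 3 and 1.62 on day 5, beside -0.01 and -0.01 over all tested genes. Both comparisons use the same day 0 libraries.

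Periostin (Postn, ENSMUSG00000027750, chromosome 3, 54361109 to 54391037, plus strand), a matricellular protein of connective tissue under load and repair, had the largest fitted change on day 5, whereas on day 3 that of Dcn was larger. The WT libraries held 2.68 CPM on day 0 (95% Clopper-Pearson interval 1.61 to 4.18), 133.5 on day 3 and 692.9 on day 5. In Per1KO it was at 1.38, 26.3 and 67.5 CPM, and in Per2KO at 1.08, 22.0 and 71.8 CPM. All 3 populations rose at each step, and the knockouts reached on day 5 a level below that of WT on day 3. The log2 fold change was 4.58 ± 0.40 (SE, 9 libraries) on day 3 (edgeR adjusted p = 2.38e-04) and 6.44 ± 0.42 on day 5 (adjusted p = 3.25e-05). Between days 3 and 5 it was 1.86 ± 0.33 (adjusted p = 0.0414); Postn was the only one of the 9 genes called in that comparison, where 0.698% of all genes were called higher and 1.09% lower, and the call was lost in 12 of 19 alternative fits, among them those without any 1 library other than WT on day 0.

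Decorin (Dcn, ENSMUSG00000019929, chromosome 10, 97479609 to 97518143, plus strand) was at 51.5, 538.7 and 601.8 CPM in WT on days 0, 3 and 5. It was at 6.56, 677.7 and 727.4 CPM in Per1KO and at 13.7, 710.4 and 813.2 CPM in Per2KO. On day 0 both knockouts lay below WT, with counting intervals (5.87 to 7.32 and 12.7 to 14.7) that did not reach that of WT (46.3 to 57.0), and on days 3 and 5 both lay above it. The rise from day 0 to day 3 was 10.5-fold in WT, whereas the fitted log2 fold change over all genotypes was 5.10 ± 0.71 on day 3 (adjusted p = 0.00172) and 5.25 ± 0.71 on day 5 (adjusted p = 9.02e-04).

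SPARC (Sparc, ENSMUSG00000018593, chromosome 11, 55394500 to 55423183, minus strand), a calcium-binding protein that assists collagen assembly, was at 2217, 6579 and 7571 CPM in WT on days 0, 3 and 5. It was at 1200, 3660 and 3383 CPM in Per1KO and at 1205, 3324 and 3631 CPM in Per2KO. Each population made most of its rise by day 3, and the WT library was the highest on each day. The log2 fold change was 1.55 ± 0.14 on day 3 (adjusted p = 2.31e-04) and 1.62 ± 0.14 on day 5 (adjusted p = 8.26e-05), and both calls held in all 19 alternative fits.

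Biglycan (Bgn, ENSMUSG00000031375, chromosome X, 73483602 to 73495933, plus strand), a collagen-binding proteoglycan, was at 954.5, 2133 and 4305 CPM in WT. It was at 437.3, 1398 and 1025 CPM in Per1KO and at 456.1, 1289 and 1169 CPM in Per2KO. WT went on rising from day 3 to day 5, while both knockout libraries of day 5 lay below those of day 3. The log2 fold change was 1.47 ± 0.26 on day 3 (adjusted p = 0.00454) and 1.63 ± 0.27 on day 5 (adjusted p = 0.00190).

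Fibrillin-1 (Fbn1, ENSMUSG00000027204, chromosome 2, 125300594 to 125507993, minus strand), the microfibril protein, was at 388.2, 998.0 and 1962 CPM in WT. It was at 204.5, 715.9 and 527.2 CPM in Per1KO and at 387.3, 627.2 and 649.1 CPM in Per2KO. On day 0 the WT and Per2KO libraries lay within each other's counting intervals and Per1KO lay lower. The log2 fold change was 1.28 ± 0.32 on day 3 (adjusted p = 0.0196) and 1.50 ± 0.33 on day 5 (adjusted p = 0.00768); the day 3 call was lost in 4 of 19 alternative fits, those without Per1KO on day 0, Per1KO on day 3, Per2KO on day 3 or all Per1KO libraries. Its exons share 2442 bases with those of Gm9913 on the opposite strand, a gene with 0 to 2 counts in these libraries.

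Thrombospondin-1 (Thbs1, ENSMUSG00000040152, chromosome 2, 118111876 to 118127133, plus strand), a matricellular protein that can release TGF-beta from its latent form, was at 836.0, 843.4 and 3036 CPM in WT. It was at 855.8, 1791 and 2250 CPM in Per1KO and at 518.2, 1768 and 2545 CPM in Per2KO. The WT level on day 3 was within counting error of that on day 0, whereas both knockouts were higher on day 3 than on day 0. The log2 fold change was 0.99 ± 0.33 on day 3 (adjusted p = 0.0510) and 1.84 ± 0.33 on day 5 (adjusted p = 0.00319), and in the 6 knockout libraries alone the day 3 rise of 1.40 was called (adjusted p = 0.00176).

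Tenascin-C (Tnc, ENSMUSG00000028364, chromosome 4, 63959785 to 64047015, minus strand), an anti-adhesive glycoprotein of developing and healing tissue, was the only one of the 10 genes that fell. It was at 718.6, 1006 and 436.4 CPM in WT, 896.5, 261.9 and 111.4 CPM in Per1KO and 556.0, 231.1 and 134.4 CPM in Per2KO. In WT it was higher on day 3 than on day 0 and lower on day 5, and in both knockouts it was lower at each later day. The log2 fold change was -0.96 ± 0.42 on day 3 (adjusted p = 0.118) and -2.04 ± 0.43 on day 5 (adjusted p = 0.00705); in the 6 knockout libraries alone the day 3 value was -1.54 (adjusted p = 0.00115). The day 5 call was lost when all Per1KO libraries (adjusted p = 0.0672) or all Per2KO libraries (adjusted p = 0.0782) were left out.

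Fibronectin (Fn1, ENSMUSG00000026193, chromosome 1, 71585520 to 71653200, minus strand) had the highest CPM of the 10 genes in all 9 libraries, and no day effect passed the test. It was at 6638, 7952 and 19720 CPM in WT, 6212, 7802 and 5085 CPM in Per1KO and 6683, 6970 and 5943 CPM in Per2KO. Only the WT library of day 5 stood apart, and the other 8 lay between 5085 and 7952 CPM. Its log2 fold change on day 5 was 0.44 ± 0.39 (adjusted p = 0.386) and became -0.22 without the WT library of day 5. Lysyl oxidase (Lox, ENSMUSG00000024529, chromosome 18, 52516067 to 52529867, minus strand) was at 530.9, 728.9 and 928.1 CPM in WT, 492.0, 421.0 and 465.9 CPM in Per1KO and 426.8, 437.3 and 540.5 CPM in Per2KO. It was higher at each later day in WT and nearly level in the knockouts, with a fitted log2 fold change on day 5 of 0.35 ± 0.17 (adjusted p = 0.136).

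**Figure D3:**
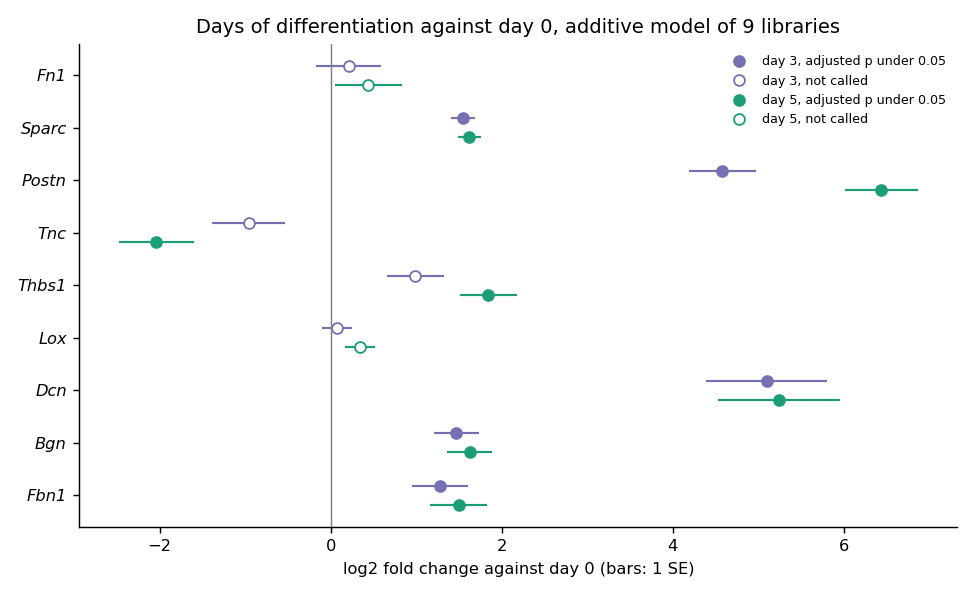
Points give the log2 fold change of the 9 tested genes on days 3 and 5 against day 0 in the additive model of 9 libraries, with bars of 1 SE and filled points for calls. Postn and Dcn lie furthest to the right, with 6.44 and 5.25 on day 5, and Tnc lies to the left, at -2.04.

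Lumican (Lum, ENSMUSG00000036446, chromosome 10, 97565128 to 97572703, plus strand), a keratan sulfate proteoglycan that binds collagen fibrils, lies 46984 bases from Dcn on the same strand. In WT it had 1, 35 and 56 counts on days 0, 3 and 5, or 0.141, 6.37 and 12.3 CPM. In Per1KO it had 0, 6 and 6 counts (0.124 and 0.144 CPM on the later days) and in Per2KO 0, 5 and 18 (0.103 and 0.438 CPM), from libraries at least 6.20 times as deep. A count of 0 allows up to 3 counts, or 0.0607 CPM in Per1KO and 0.0590 CPM in Per2KO on day 0. On days 3 and 5 the WT intervals (4.44 to 8.87 and 9.28 to 16.0 CPM) lay above those of every knockout library, of which the highest reached 0.692 CPM. Lum was left out of the test because only 2 libraries reached 1 CPM; in a fit without a filter on low counts it was called lower in both knockouts (adjusted p = 2.42e-06 and 4.95e-06) and higher on day 5 (adjusted p = 1.41e-05). Dcn, its neighbour, was higher in the knockouts than in WT on the same days. Kera, which encodes another keratan sulfate proteoglycan of this family, had 0 CPM in all 9 libraries.

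Each knockout was then compared with WT across the 3 days; both comparisons use the same 3 WT libraries. In Per1KO, 5 of 9 tested genes were called lower (Sparc, Postn, Lox, Bgn and Fbn1), where 10.1% of all tested genes were. In Per2KO, 5 of 9 were called lower (Sparc, Postn, Tnc, Lox and Bgn), where 10.6% of all tested genes were. None was called higher by edgeR, where 9.26% and 9.31% of all genes were, and none by DESeq2. Nor was any higher at an edgeR p-value under 0.05 before adjustment. In either direction, 4661 of 13324 genes in Per1KO and 4681 in Per2KO had such a p-value. The median log2 fold change of the 9 genes was -0.97 in Per1KO and -0.77 in Per2KO, beside -0.02 and -0.01 over all tested genes. In bulk samples, fewer cells that make a transcript and less of it per cell cannot be told apart.

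Postn differed most, by a log2 fold change of -2.51 ± 0.37 in Per1KO (5.68-fold lower, adjusted p = 0.00337) and -2.68 ± 0.37 in Per2KO (6.41-fold lower, adjusted p = 0.00240). On day 5 the single WT library was at 692.9 CPM, against 67.5 and 71.8 in the knockouts. Sparc was 1.95-fold lower in Per1KO (-0.96 ± 0.14, adjusted p = 0.00246) and 1.97-fold lower in Per2KO (-0.98 ± 0.14, adjusted p = 0.00232), by a similar factor on each day. Its call held in all 19 alternative fits in Per1KO and in 18 of 19 in Per2KO, and that of Postn in 18 of 19 in each knockout; the exceptions were the fits without day 3, with adjusted p-values of 0.0561 for Sparc in Per2KO and 0.0741 and 0.0683 for Postn.

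Bgn had a log2 fold change of -1.29 ± 0.26 in Per1KO (adjusted p = 0.0131) and -1.26 ± 0.26 in Per2KO (adjusted p = 0.0137), and all 6 knockout libraries lay below the WT library of their day. The call was lost in 4 of 19 alternative fits in each knockout. In Per1KO these were the fits without its day 0 library, its day 5 library, all of day 0 or all of day 5, and in Per2KO those without its day 3 library, its day 5 library, all of day 3 or all of day 5.

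Lox, Tnc and Fbn1 lay closer to the threshold. Lox had -0.63 ± 0.17 in Per1KO (adjusted p = 0.0398) and -0.62 ± 0.17 in Per2KO (adjusted p = 0.0402), and was called in 8 and 7 of 19 alternative fits, with adjusted p-values up to 0.306 and 0.237. Tnc had -1.26 ± 0.43 in Per1KO (adjusted p = 0.0802) and -1.52 ± 0.42 in Per2KO (adjusted p = 0.0425, called in 7 of 19 alternative fits). Fbn1 had -1.12 ± 0.33 in Per1KO (adjusted p = 0.0484, called in 6 of 19) and -0.77 ± 0.32 in Per2KO (adjusted p = 0.135). The calls of Lox in both knockouts and of Tnc in Per2KO were each lost without any 1 library other than WT or Per1KO on day 0. That of Fbn1 in Per1KO was lost without any 1 of WT on day 3 or 5, Per1KO on day 0 or 5, or Per2KO on day 3 or 5.

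Fn1 had log2 fold changes of -0.75 ± 0.39 in Per1KO (adjusted p = 0.218) and -0.72 ± 0.39 in Per2KO (adjusted p = 0.233), and without day 5 the values were -0.06 and -0.09. Dcn had -0.80 ± 0.63 (adjusted p = 0.406) and -0.51 ± 0.61 (adjusted p = 0.589), since its day 0 difference and its later differences had opposite signs. Thbs1 had 0.18 ± 0.33 (adjusted p = 0.735) and 0.01 ± 0.33 (adjusted p = 0.992). The signs for Dcn and Thbs1 changed with the libraries left out.

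**Figure D4:**
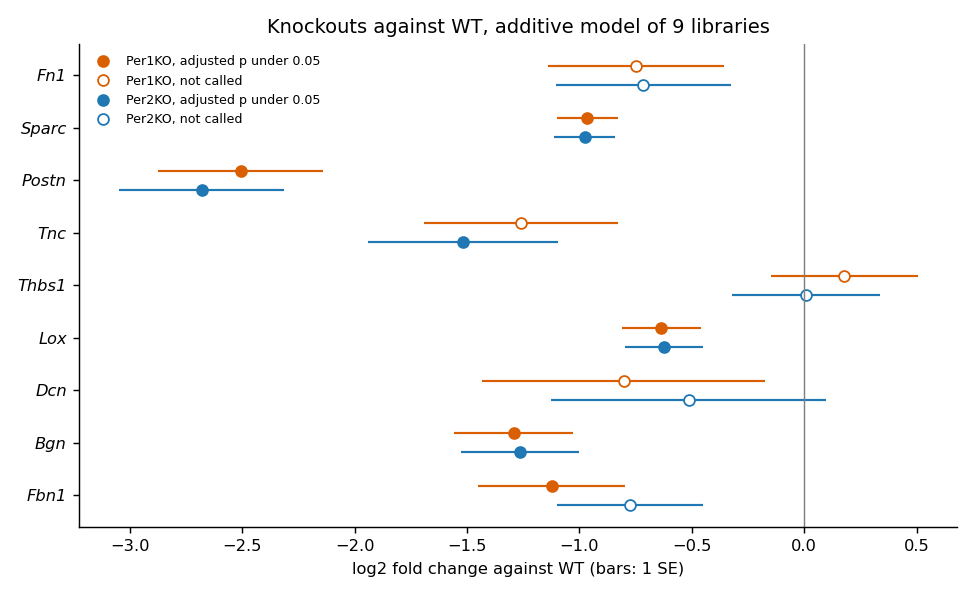
Points give the log2 fold change of each knockout against WT for the 9 tested genes in the additive model of 9 libraries, with bars of 1 SE and filled points for calls. Postn lies furthest from 0, at -2.51 and -2.68, and Thbs1 nearest, at 0.18 and 0.01.

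Single pairs of libraries show on which day the knockouts departed from WT; no replicates stand behind them and no p-value is given. A gene with at least 1 CPM in either library was counted when it differed by at least 2-fold. On day 0, 2 of 9 genes in Per1KO (Dcn and Bgn) were lower than in WT by that much, where 8.65% of all genes were. In Per2KO it was 3 of 9 (Dcn, Bgn and Postn), where 9.30% of all genes were. None was higher (8.18% and 8.22%). The Postn gap rests on 19 counts in WT and 55 in Per2KO. Their counting intervals (1.61 to 4.18 and 0.814 to 1.41 CPM) allow a gap under 2-fold. On day 3, 3 of 10 were lower in each knockout (Postn, Tnc and Lum; 9.26% and 10.0% of all genes) and Thbs1 was higher (8.58% and 8.88%). On day 5, 7 of 10 were lower in each (Fn1, Sparc, Postn, Tnc, Bgn, Lum and Fbn1; 11.5% and 11.5% of all genes), and none was higher (9.15% and 9.26%). Fn1 on day 5 was at 25.8% of the WT level in Per1KO and 30.1% in Per2KO, and Bgn at 23.8% and 27.2%.

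Within WT, 8 of 10 genes were at least 2-fold higher on day 5 than on day 0, all but Lox and Tnc, where 14.6% of all genes were. In Per1KO it was 6 of 9 (14.6% of all genes) and in Per2KO 5 of 9 (13.7%). Between days 3 and 5, 4 of 10 genes were at least 2-fold higher in WT (Fn1, Postn, Thbs1 and Bgn; 7.26% of all genes), against 1 of 9 in each knockout, Postn (2.79% and 1.74%).

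Whether the response to differentiation differed from WT was tested with an interaction term between genotype and stage, where the stages were day 0 and the later days 3 and 5. No member passed in either knockout, and 0 of 13324 genes did, with 1426 genes in Per1KO and 1783 in Per2KO at an unadjusted p-value under 0.05 and 1 member among them in each, Dcn. Dcn had a rise larger than that of WT by 3.27 ± 0.30 on the log2 scale in Per1KO (adjusted p = 0.0806) and by 2.33 ± 0.29 in Per2KO (adjusted p = 0.0775). The DESeq2 Wald test called Dcn in both (adjusted p = 2.78e-19 and 4.09e-10), as did the edgeR fit without a low-count filter (1.05e-10 and 4.26e-06). Day 0 of each genotype is 1 library, so these p-values take their spread from days 3 and 5 only, and the Dcn difference rests on single day 0 libraries. The 13 alternative fits, with values of 3.19 to 3.35 and 2.17 to 2.42, all keep those of WT and of the knockout compared, and so do not test that dependence. Tnc had -2.27 ± 0.97 (adjusted p = 0.485) and -1.61 ± 0.96 (adjusted p = 0.536), and was called in none of the 13. The values of the other 7 members lay between -2.18 and 0.84.

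Per1KO and Per2KO were compared with each other in the additive model. No member was called, and 0 of 13324 genes were, with 88 genes and 0 members at an unadjusted p-value under 0.05; DESeq2 called 1 gene and 0 members. The log2 differences of the 9 genes lay between -0.35 and 0.26, with standard errors from 0.13 to 0.58. Without Per1KO on day 3 the lowest was -0.69, and up to 5 of the 9 signs changed when a library was left out. Among the 9 tested genes, the largest single-library gap was that of Dcn on day 0, at 6.56 CPM in Per1KO and 13.7 in Per2KO. Dcn was the only gene of the 9 at least 2-fold lower, where 1.62% of all genes were. Lum, under 1 CPM in both knockouts, was left out of these pairs. These results do not show that the populations are alike, only that the gaps were within the spread.

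Other matrix genes were counted from 4 lists chosen with earlier results of this series known. The shares to read these counts against, over all tested genes, were 10.1% lower with 9.26% higher for Per1KO, 10.6% with 9.31% for Per2KO, and 23.2% rising with 22.9% falling on day 5. Counts are of tested genes, and a gene expressed in 1 condition only could pass the filter through that condition. Of 54 tested glycoproteins outside the 10 genes (72 listed), each knockout had 20 genes below WT and 1 above it by the test, with median log2 fold changes of -0.54 and -0.60. On day 5 against day 0, 24 rose and 9 fell (median 0.54). Of 10 tested proteoglycans (26 listed), 2 were lower and 0 higher in each knockout (medians -0.81 and -0.84), and 7 rose and 0 fell on day 5 (median 1.86). Of 17 tested cross-linking and processing enzymes (19 listed), 8 were lower and 0 higher in each knockout (medians -0.46 and -0.53), and 6 rose and 2 fell on day 5 (median 0.21). Of 18 tested receptors (20 listed), 6 were lower in Per1KO and 5 in Per2KO, with 0 higher (medians -0.36 and -0.33), and 7 rose and 6 fell on day 5 (median 0.36).

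Among the genes the naming rule took from these lists, the dermatopontin gene Dpt, whose product binds decorin, was at 1.55, 78.5 and 142 CPM in WT on days 0, 3 and 5, and at most at 3.25 CPM in Per1KO and 6.15 in Per2KO (log2 fold changes -4.62 ± 0.52 and -3.92 ± 0.50, edgeR adjusted p = 0.00110 and 0.00176). Spon2, which encodes a secreted matrix protein of the spondin family, was at 53.2 to 99.6 CPM in WT and at 1.52 to 10.9 CPM in the knockouts (-4.30 ± 0.43 and -3.94 ± 0.42). The one glycoprotein gene called higher was Ccn2, which encodes connective tissue growth factor, with 1.22 ± 0.25 in Per1KO (adjusted p = 0.0133) and 1.04 ± 0.25 in Per2KO (adjusted p = 0.0239). Loxl1, a relative of Lox that acts on elastic fibres, had -1.28 ± 0.20 and -1.18 ± 0.19, and Plod1, a collagen lysyl hydroxylase, -1.14 ± 0.16 and -1.15 ± 0.16. Podnl1, a small leucine-rich repeat gene, had -1.17 ± 0.20 and -1.27 ± 0.20. The fibronectin-binding integrin subunit gene Itga4 had -1.81 ± 0.25 and -1.81 ± 0.26, and the syndecan gene Sdc3 -1.51 ± 0.25 and -1.53 ± 0.25.

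On day 5 against day 0, the largest called rises in those lists among genes averaging 10 CPM or more were those of Lama4 (laminin alpha-4, log2 fold change 4.72 ± 0.32) and Dpt (4.39 ± 0.55) among glycoproteins and of Prelp (5.89 ± 0.48) and Aspn (3.74 ± 0.46), both small leucine-rich proteins like Dcn, among proteoglycans. Tgm2 (transglutaminase 2, 2.83 ± 0.45) and Plod2 (1.10 ± 0.22) rose most among the enzymes, and the thrombospondin receptor gene Cd36 and the laminin receptor gene Dag1 (2.02 ± 0.25) among the receptors. Cd36 had at most 0.282 CPM on day 0 and 26.2 to 39.8 CPM on day 5, and no fitted fold change is given for it. Lama4, Prelp, Dpt and Aspn also started low. On day 0 Lama4 was at 2.96 CPM in WT, 0.162 in Per1KO and 0.275 in Per2KO. Prelp was at 1.83, 0.182 and 0.236 CPM there, Dpt at 1.55, 0.385 and 0.472 CPM, and Aspn at 2.68, 2.25 and 1.65 CPM. Their fitted rises rest on these levels near the floor. The largest called falls, with the same limit on level, were those of Fbln1 (fibulin-1, -2.66 ± 0.27), Spp1 (osteopontin, -1.81 ± 0.30), Pcolce2 (-1.60 ± 0.16), Loxl2 (-0.80 ± 0.13), Plaur (the urokinase receptor, -3.25 ± 0.22) and Itgb3 (-1.37 ± 0.15). Each of these genes passed the test.

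**Figure D5:**
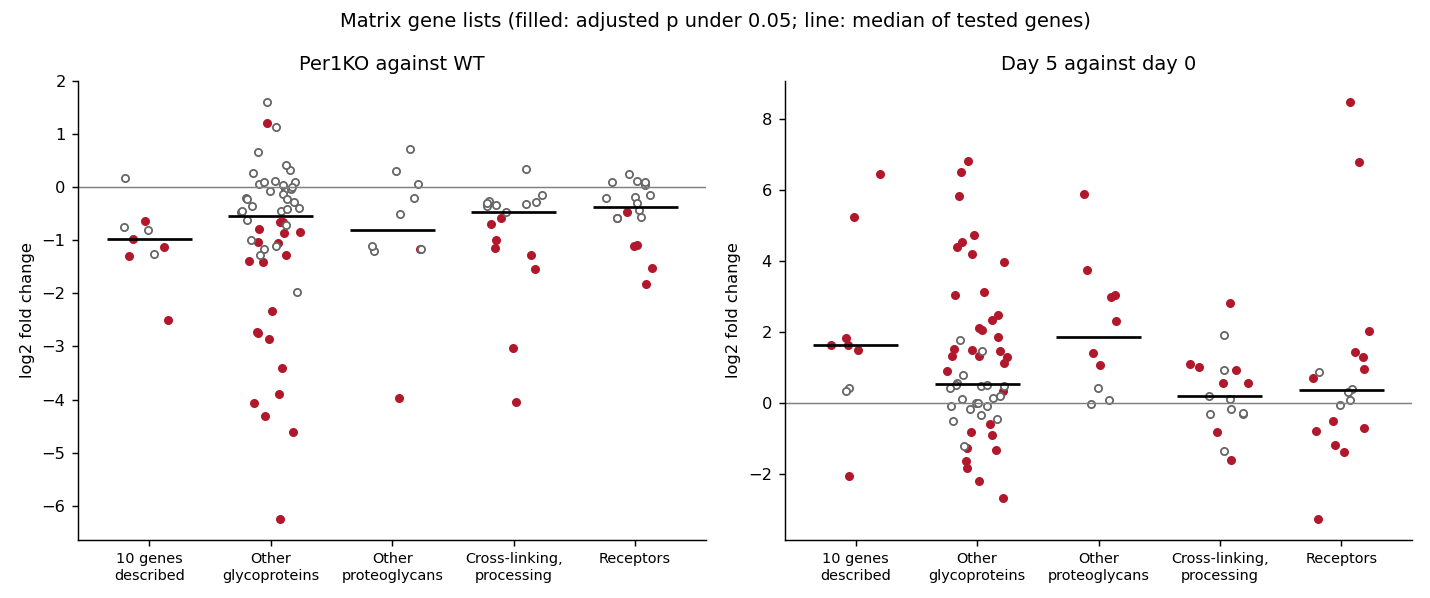
Points give the log2 fold change of each tested gene of the 5 lists in Per1KO against WT (left) and on day 5 against day 0 (right), filled where the adjusted p-value was under 0.05, with a line at the median of the list. In Per1KO the medians lie between -0.97 and -0.36, and on day 5 between 0.21 and 1.86.

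Likeness of course was described with Pearson's r of log2 CPM over the 9 libraries, which all genes share, and carries no p-value. Among pairs of the 10 genes, Bgn and Sparc (0.97), Postn and Sparc (0.96) and Bgn and Fbn1 (0.96) were most alike, and Thbs1 and Tnc least (-0.73). Among 9212 other protein-coding genes averaging 10 CPM or more, the 2 most like Sparc were Igf1 (0.994) and Cuta (0.991), and those most like Dcn were Lipa (0.994) and Cpq (0.994). Bgn was most like Anks3 (0.994) and the fibrillar collagen gene Col5a1 (0.992), and Postn most like Mfsd7a (0.992) and Nrap (0.992). Tnc was most like Rplp2 (0.991) and Eipr1 (0.990), and Fn1 most like Thap7 (0.965) and Sox11 (0.925). For Thbs1 they were Golga3 (0.984) and Icmt (0.976), for Lox Sh3bp5 (0.985) and Opn3 (0.965), and for Fbn1 Pgap3 (0.977) and Grtp1 (0.977). Lum, with 9213 candidates, was most like Slc7a2 (0.985) and Tmem104 (0.980). Likeness here compares shape and not size, as Fn1 changed 3.88-fold over the libraries while Thap7 lay between 17.0 and 26.3 CPM. On day 0 Igf1 was at 0.0405 CPM in Per1KO and 0.0197 in Per2KO, and Lum had 0 counts in both. The small count added before the logarithm sets much of those values.

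Markers of differentiation and of other cells moved beside these results. The 8 muscle markers summed to 3108, 13640 and 14830 CPM in WT on days 0, 3 and 5. The sums were 1762, 6589 and 9828 CPM in Per1KO and 1445, 6355 and 8342 CPM in Per2KO. Single genes differed in direction. On day 5 Ckm was at 275.4 CPM in WT, 434.4 in Per1KO and 331.1 in Per2KO, and Des at 3591, 4112 and 3849. Myod1, Myog, Myh3, Actc1 and Mymk were lower in both knockouts on that day, and Myf5 in Per1KO only. Of 8 fibroblast or fibro-adipogenic markers, 5 were tested, and the list summed to 431.6 to 562.4 CPM in WT and 164.5 to 520.5 CPM in the knockouts. In that list Thy1 and Tcf21 had 0 counts in all 9 libraries, whereas Cd34 was at 47.4 to 156.9 CPM in WT and 7.70 to 26.6 CPM in the knockouts and Pi16 at 1.83 to 33.1 and 0.587 to 1.92 CPM. Ly6a, which made up the largest part of the sum, was at 377.8, 413.4 and 206.7 CPM in WT on days 0, 3 and 5. It was at 155.9, 441.6 and 433.1 CPM in Per1KO and 139.9, 476.3 and 485.1 CPM in Per2KO. Ly6a was thus lower in the knockouts on day 0 and higher on days 3 and 5. Pdgfra was at 12.75 to 22.6 CPM in WT and 6.947 to 10.19 CPM in the knockouts, and Tcf7l2 at 5.646 to 12.29 and 2.855 to 5.52 CPM. Both lay below WT in each knockout on every day. Dpp4 had no counts in WT and at most 0.195 CPM in the knockouts. The part of these genes in the matrix differences was not tested. The 4 endothelial markers summed to at most 3.62 CPM and the 5 macrophage or leukocyte markers to at most 15.7 CPM in any library, with Adgre1 at 0 counts in all 9. The adipocyte list summed to 5.46 to 26.9 CPM, most of it from Pparg, with Adipoq and Lep at 0 counts. The osteoblast or chondrocyte list summed to 80.3 to 218.6 CPM, from Sox9 and Runx2. The smooth muscle or pericyte list summed to 653.7 to 4298 CPM, most of it Acta2, with Myh11 at no more than 0.219 CPM.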

How the data were processed

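The deposited table gives counts as whole numbers of reads for each Ensembl identifier, in 9 columns whose names each matched 1 sample title. Per the labels' protocols, libraries were made from poly(A) RNA with a TruSeq kit and read as single reads. Per the submitters' processing notes, CASAVA 1.8 and HISAT2 2.1.0 were used with build mm10; the counting program, annotation and strand setting are not given in the sources used here. Without a stated strand, reads of overlapping antisense genes cannot be told apart. Positions and lengths are from GENCODE M21 (GRCm38, the assembly of mm10), and 47224 of 47729 identifiers matched a symbol. At most 0.308% of the 31-mers of any of the 10 genes' longest transcripts occurred in another gene. 

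Genes that reached 1 CPM in 3 or more libraries were tested with edgeR 4.0.16 (limma 3.58.1, R 4.3.3), robust quasi-likelihood, TMM scaling, genotype + day (4 residual degrees of freedom) or genotype by stage (3). Alternatives were DESeq2 1.42.0, other scalings, no filter or a filter at 10 CPM, knockouts thinned to the lowest WT total, only the libraries compared, and leaving out each library, day or genotype. Single pairs were compared on log2 CPM, adding a prior count of 2. Intervals are exact Clopper-Pearson 95% intervals and, like floors of 3 counts, cover only the counting error of reads within 1 library. Reads carry no molecular identifiers, so repeated reads of 1 molecule cannot be told apart. Scripts were tested on simulated data. The genes, lists and tests were chosen with earlier results of these data known. Named beside the 10 genes were, from each list, the 2 largest called rises and falls on day 5 and in both knockouts if they averaged 10 CPM or more, and the 2 genes most like each of the 10; Kera and the genes of the marker lists were named after their values were seen.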

Additional observations from a re-analysis of the deposited data

How the results depend on the processing

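No paired analysis was possible because each genotype and day has 1 library, numbered 1, so replicate numbers pair nothing; genotypes were compared within days by the day term of the reported model. Of the 10 genes, the fit on TMM factors from protein-coding genes called 3 in Per1KO against WT (5 in the reported fit), and fits of only the 6 libraries compared called 3 in each knockout. Over all genes those 6-library fits called 1391 in Per1KO, 1263 in Per2KO, 3105 on day 3 against day 0 and 579 on day 5 against day 3 (2575, 2652, 4664 and 238 in the reported fits), with 2 of the 10 genes in the last. A filter at 10 CPM left 1564 and 1705 calls in the knockouts. Per1KO against Per2KO gave 1 gene with DESeq2 and 1 without a low-count filter. For day 5 against day 3, DESeq2 called 733 genes; the unfiltered fit called 370 with 0 of the 10 genes, and thinning the knockouts to the lowest WT total also left 0. For the interaction, DESeq2 called 248 genes in Per1KO and 476 in Per2KO, and the unfiltered fit 315 and 567, with 1 of the 10 genes, Dcn, in each. Thinning turned Thbs1 in Per2KO to -0.022.

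Leaving out a library, a day or a genotype gave 2 to 6 called genes of the 10 in Per1KO, 0 to 5 in Per2KO (0 without day 3) and 0 to 2 on day 5 against day 3. Over all genes it gave 780 to 3602 in Per1KO, 855 to 3738 in Per2KO, 1147 to 7684 on day 3, 2348 to 8586 on day 5 and 0 to 1393 on day 5 against day 3. Signs turned for Thbs1 (-0.225 to 0.486 in Per1KO, -0.456 to 0.331 in Per2KO), Dcn (-1.448 to 0.294 and -1.022 to 0.567), Fn1 (-0.055 to 0.46 on day 3, -0.227 to 0.801 on day 5) and Lox (-0.117 to 0.272 on day 3). In comparisons where single genes are mostly not quoted, up to 5 of 9 signs turned for Per1KO against Per2KO (without Per2KO on day 0), and 3 of 9 for day 5 against day 3 (without WT on day 3, WT on day 5 or all WT libraries), and for the interaction up to 2 of 9 in Per1KO and 1 of 9 in Per2KO (both without WT on day 5). The cause of these changes was not tested, beyond the fewer libraries or genes in those fits. The interaction could not be fitted without a day 0 library it needs. No setting tried for the single pairs moved their counts by more than a factor of 3/2, and smaller shifts are not listed. The WT depth limits low genes such as Lum.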
